A study of Mus musculus with 6 samples.

Results

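Blood clotting and its removal are carried out by plasma proteins that the liver makes, helped by receptors and cofactors on vessel walls and blood cells. Here 37 genes of coagulation and fibrinolysis were followed in mouse liver, and all 37 matched an entry among 24489 gene entries. The list holds symbols chosen by function, with earlier results of these data known. They take in the clotting factors and fibrinogen chains, the enzymes that use vitamin K, the natural anticoagulants, and the plasminogen system that dissolves clots. All 37 also passed the filter on low counts.

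Tissue factor (F3) with factor VII starts clotting, the contact factors can start it on surfaces, and both routes lead to thrombin (F2), which turns fibrinogen into fibrin that factor XIII then cross-links. Gamma-carboxylation, which needs vitamin K, makes factors II, VII, IX and X and proteins C, S and Z able to bind membranes, and vitamin K is a fat-soluble vitamin taken up with the help of bile. Plasmin, cut from plasminogen by tissue-type or urokinase-type activator, digests fibrin.

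Polyadenylated RNA came from 1 liver lobe at postnatal day 10 in 3 libraries of genotype Jag1Ndr/Ndr and 3 of genotype Jag1+/+, all untreated and of mixed strain (C3H/C57bl6J). The Notch ligand gene is Jag1, Ndr (Nodder) is a missense allele of it carried in every cell, and homozygotes serve to model Alagille syndrome, a disorder with scarce bile ducts. The labels do not say that each library is a separate animal, so the p-values measure the spread between these libraries, part of which may be technical. The tissue is a bulk mixture, in which fewer cells of a type and less RNA per cell cannot be told apart.

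Reads over gene entries numbered 12992592 to 59653111 in the Jag1Ndr/Ndr libraries and 17548954 to 40499166 in the Jag1+/+ libraries. A count of 0 allows a level of up to 3 reads, which is 0.266 CPM (read counts relative to library size, scaled by TMM) in the shallowest library and 0.0421 CPM in the deepest, for counting error only. By Xist and Y-linked reads, replicates 2 and 3 of Jag1Ndr/Ndr and replicate 1 of Jag1+/+ were female and the other 3 libraries male. Fits without Jag1Ndr/Ndr replicate 1 therefore set only female Jag1Ndr/Ndr libraries against Jag1+/+ libraries of both sexes. On the second principal component Jag1Ndr/Ndr replicates 1, 2 and 3 lay at 46.7, -43.6 and -19.9. Jag1+/+ replicates 1, 2 and 3 lay at 7.35, 2.14 and 7.35. Replicates 1 and 2 of Jag1Ndr/Ndr were thus far from the Jag1+/+ libraries, on opposite sides. Results that turn on Jag1Ndr/Ndr replicate 1 are given without it. Hepatocyte markers were abundant in every library, and edgeR called 0 of 8 higher and 1 lower (Ttr). Their summed level was 103600 to 183900 CPM in Jag1Ndr/Ndr and 217000 to 223200 CPM in Jag1+/+ livers. Of this, albumin alone was 86170 to 150000 CPM in Jag1Ndr/Ndr and 176100 to 180200 CPM in Jag1+/+ livers. Alb, Ttr and Apob were lower in every Jag1Ndr/Ndr library, while Hnf4a, Tat, Cps1, Apoa1 and Asgr1 overlapped between genotypes.

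The sequences shown first belong to the 3 fibrinogen genes, whose levels had the same order across the Jag1Ndr/Ndr libraries, and to 3 of the 4 members that rose. Each is the 250 bases before a start in RefSeq on GRCm38.p6, 5′ to 3′ on the gene's own strand. The starts used for Plaur and Procr, and the second of F13a1, lie inside the outer bounds of the gene that are given with its values. In the windows capitals mark letters that match a motif on either strand. The motifs searched were TTCNNNGAA (STAT factors), TTGCNNAA (C/EBP), GTTAATNAT (a stretch of the HNF1 site), CAAAGTCCA (HNF4) and CTGGGA, the core of the type II interleukin-6 element of fibrinogen genes, which was added after the sequences were read. The windows lie at chr3:83025903-83026152 (plus strand) for Fga, chr3:83049864-83050113 (minus) for Fgb, chr3:83007474-83007723 (plus) for Fgg, chr2:155750967-155751216 (plus) for Procr, chr7:24462233-24462482 (plus) for Plaur, and chr13:37050245-37050494 and chr13:37049214-37049463 (both minus) for the 2 starts of F13a1.
Fga: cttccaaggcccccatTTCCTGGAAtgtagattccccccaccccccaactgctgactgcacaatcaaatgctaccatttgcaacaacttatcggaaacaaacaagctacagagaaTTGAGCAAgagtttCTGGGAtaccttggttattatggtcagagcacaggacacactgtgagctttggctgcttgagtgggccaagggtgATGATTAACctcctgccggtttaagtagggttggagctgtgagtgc
Fgb: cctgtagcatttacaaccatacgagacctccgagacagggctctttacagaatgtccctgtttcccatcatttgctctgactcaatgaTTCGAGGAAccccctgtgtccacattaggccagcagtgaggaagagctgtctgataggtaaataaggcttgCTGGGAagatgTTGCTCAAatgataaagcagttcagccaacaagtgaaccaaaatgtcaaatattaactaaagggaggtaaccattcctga
Fgg: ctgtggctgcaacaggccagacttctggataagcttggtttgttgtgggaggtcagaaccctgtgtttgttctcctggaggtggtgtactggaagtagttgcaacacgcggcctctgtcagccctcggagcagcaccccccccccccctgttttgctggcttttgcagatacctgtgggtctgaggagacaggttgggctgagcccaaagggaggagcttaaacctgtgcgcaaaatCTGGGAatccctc
Procr: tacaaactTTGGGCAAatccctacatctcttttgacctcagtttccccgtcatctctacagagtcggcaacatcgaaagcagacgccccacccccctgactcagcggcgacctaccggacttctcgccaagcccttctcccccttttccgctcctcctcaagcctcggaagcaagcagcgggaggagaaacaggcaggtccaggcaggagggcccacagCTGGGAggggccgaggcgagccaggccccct
Plaur: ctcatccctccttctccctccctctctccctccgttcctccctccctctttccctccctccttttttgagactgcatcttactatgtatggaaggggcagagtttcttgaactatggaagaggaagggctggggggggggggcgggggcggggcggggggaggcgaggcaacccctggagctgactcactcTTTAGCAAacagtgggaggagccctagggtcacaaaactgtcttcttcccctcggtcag
F13a1, first start: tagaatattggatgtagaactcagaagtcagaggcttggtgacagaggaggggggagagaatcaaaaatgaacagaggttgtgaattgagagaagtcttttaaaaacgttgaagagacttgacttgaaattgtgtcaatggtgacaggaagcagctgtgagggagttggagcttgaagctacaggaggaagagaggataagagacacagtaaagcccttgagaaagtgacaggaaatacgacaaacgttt
F13a1, second start: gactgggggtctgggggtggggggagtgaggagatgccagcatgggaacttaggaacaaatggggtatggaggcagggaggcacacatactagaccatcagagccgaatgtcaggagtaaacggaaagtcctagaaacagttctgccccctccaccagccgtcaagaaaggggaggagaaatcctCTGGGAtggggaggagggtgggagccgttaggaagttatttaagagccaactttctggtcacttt

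CTGGGA lay in the windows of all 3 fibrinogen chains, from position -121 to -116 before the start in Fga, -91 to -86 in Fgb and -13 to -8 in Fgg. That motif is common, being present in 27.0% of 32851 RefSeq windows of this length. TTGCNNAA occurred at -135 to -128 in Fga and -80 to -73 in Fgb, TTCNNNGAA at -234 to -226 in Fga and at -162 to -154 in Fgb, and GTTAATNAT at -46 to -38 in Fga. TTGCNNAA was in the windows of 11 of the 29 members that the table holds, in 33.3% of their 33 windows against 9.56% of all windows. TTCNNNGAA was found for 4 of these members (12.1% of windows against 7.02%), GTTAATNAT for 3 (9.09% against 0.737%) and CAAAGTCCA for 0 (0.384% of all windows). No 2 matches in the windows shown overlap, and a match of letters is no measure of binding.

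Whether clotting and fibrinolysis transcripts differed in Jag1Ndr/Ndr livers was asked of each member in a test across all genes. Vwf, Procr, Plaur and F13a1 rose and F11 fell in Jag1Ndr/Ndr livers, and the other 32 members did not pass (edgeR's quasi-likelihood test, p adjusted by Benjamini-Hochberg over 13819 genes, threshold 0.05). The 4 that rose are genes best known from endothelial cells, megakaryocytes and myeloid cells, and their mean levels per length were low, at 3.70 RPKM in Jag1Ndr/Ndr against 1.51 RPKM in Jag1+/+ livers for Vwf, 4.08 against 1.35 for Procr, 5.84 against 2.00 for Plaur and 2.79 against 0.653 for F13a1. The 5 calls are 13.5% of the members, beside 7.63% of all genes tested. Because the list was chosen with earlier results of these data known, such shares, here and below, only describe this list. By direction, 10.8% of members were higher beside 4.73% of all genes, and 2.7% were lower beside 2.90%, so by edgeR the share lower was close to the background.

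The median log2 fold change (Jag1Ndr/Ndr over Jag1+/+ throughout) was -0.25 over the 37 members and 0.00 over all genes tested, whose quartiles were -0.24 and 0.30. Of the members 22 had a negative and 15 a positive value. The 3 Jag1Ndr/Ndr libraries lay below the 3 Jag1+/+ libraries in 14 members (37.8%, beside 14.2% of all genes tested) and above them in 8 (21.6%, beside 14.8%). With CPM by library totals in place of TMM, which scales libraries to a common bulk of genes, those counts were 7 lower (18.9%, beside 7.90% of all genes) and 6 higher (16.2%, beside 19.0%). Library totals moved the log2 fold changes of all genes by a median of 0.13, and the median of the members was then -0.12 against 0.13 for all genes. The median of the members was -0.12 without Jag1Ndr/Ndr replicate 2 and -0.15 without replicate 3. DESeq2 called 6 members higher (16.2%, beside 8.23% of all genes) and 5 lower (13.5%, beside 5.45%). With limma on the deposited RPKM, in which the TMM factor is multiplied in, 0 members passed at a pseudocount of 1. Of all genes 2.01% were higher and 0.572% lower in that fit. Among the members 6 had an unadjusted p below 0.05 (smallest limma adjusted p 0.0626), and the median was -0.01 over the members and 0.17 over all genes. With the factor divided out in the usual sense, an alternative chosen after seeing the data, limma called Vwf, Procr and Plaur higher (8.11%, beside 2.36% of all genes) and 0 lower (beside 2.09%). The medians were then -0.24 over the members and -0.02 over all genes. Without any 1 Jag1+/+ library edgeR called 2 members higher (Vwf and Plaur; 5.41%, beside 1.13% to 1.45% of all genes) and 0 lower (beside 0.927% to 1.01%).

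**Figure D1:**
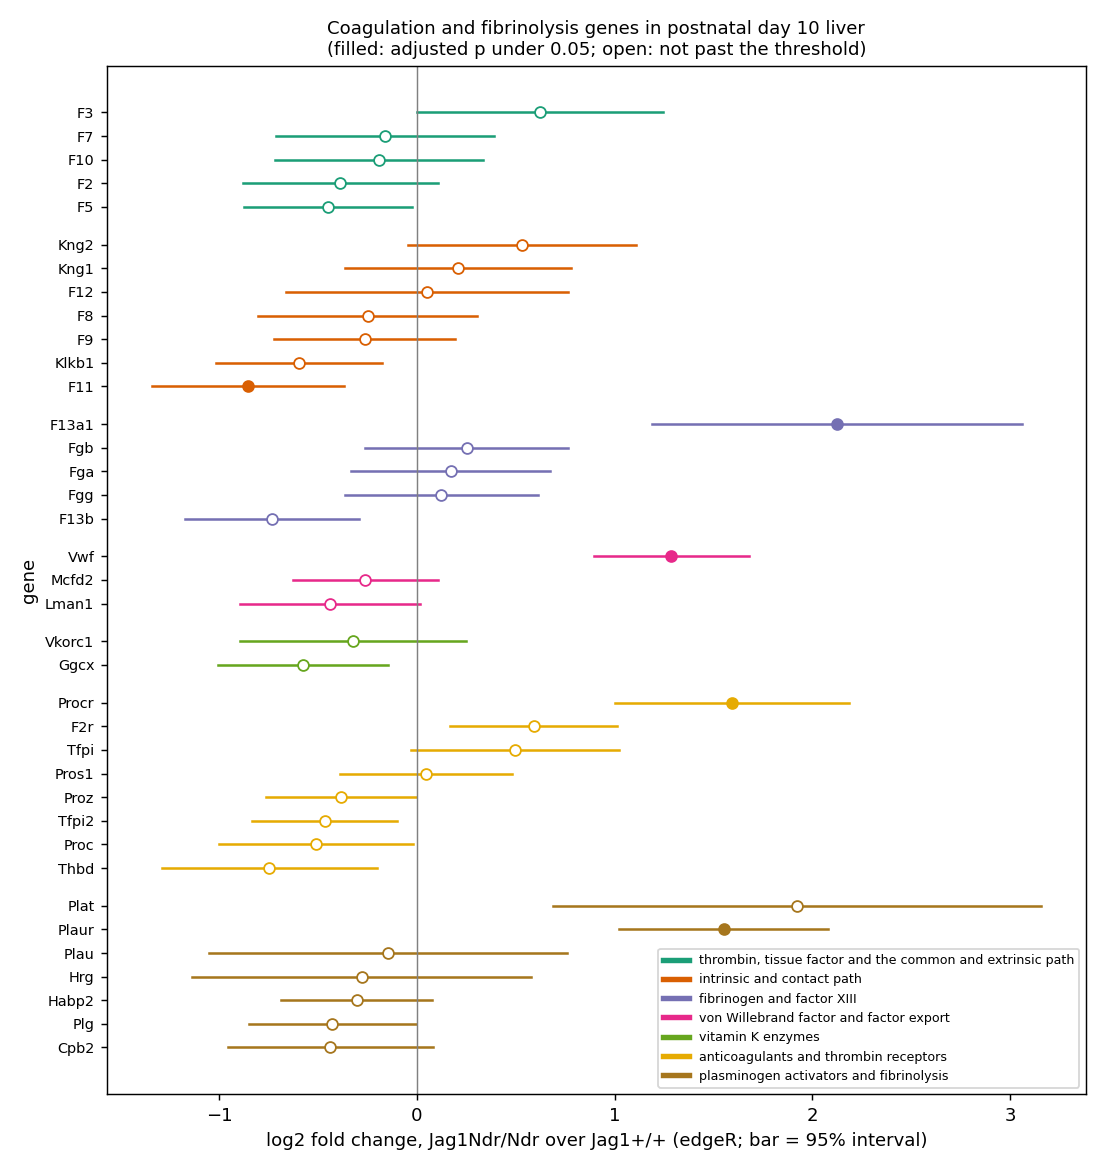
Log2 fold change of each of the 37 genes, Jag1Ndr/Ndr over Jag1+/+ (x axis), with its 95% interval from edgeR (bar), genes on the y axis grouped by role. Filled points are the 5 genes past the threshold, F13a1, Procr, Plaur and Vwf above 0 and F11 below 0.

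Among the genes of the common and extrinsic route none passed by edgeR (0 of 5), with 2 at an unadjusted p below 0.05 and 0 called with DESeq2. Prothrombin (F2), the precursor of thrombin, measured 2656, 1740 and 2048 CPM in Jag1Ndr/Ndr replicates 1, 2 and 3 and 2698, 2855 and 2871 CPM in Jag1+/+ replicates 1, 2 and 3. Every Jag1Ndr/Ndr value was below every Jag1+/+ value, with replicate 1 close to them, and the log2 fold change was -0.39 ± 0.21 (SE; 95% interval -0.88 to 0.10, edgeR adjusted p = 0.341). F5, the cofactor that speeds prothrombin cleavage, averaged 450.5 ± 72.3 CPM in Jag1Ndr/Ndr and 615 ± 42.7 CPM in Jag1+/+ livers (SD, n = 3 each), without overlap. F5 did not pass (log2 fold change -0.45 ± 0.19, edgeR adjusted p = 0.198).

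The factor VII, X and protein Z genes lie side by side on chromosome 8, with gaps of 1498 and 3907 bases, and had log2 fold changes of -0.16 (F7), -0.19 (F10) and -0.38 (Proz). F7 and F10 overlapped between genotypes, while Proz averaged 330 ± 17.3 CPM in Jag1Ndr/Ndr and 430.0 ± 40.4 CPM in Jag1+/+ livers with no overlap (edgeR adjusted p = 0.219). F3, the tissue factor that starts clotting and is made by cells around vessels and by activated myeloid cells, measured 2.84, 3.69 and 4.96 CPM in Jag1Ndr/Ndr and 2.32, 2.60 and 2.56 CPM in Jag1+/+ libraries. These did not overlap, and the log2 fold change of 0.62 ± 0.27 did not pass (edgeR adjusted p = 0.220).

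In the intrinsic and contact route F11 fell and the other 6 genes did not pass. F11, the zymogen of factor XIa (chromosome 8, positions 45240659 to 45262055 of GRCm38), measured 106, 146 and 85.4 CPM in Jag1Ndr/Ndr replicates 1, 2 and 3 and 192, 213 and 205 CPM in Jag1+/+ replicates 1, 2 and 3. The genotypes stood well apart, with a 1.81-fold lower level in Jag1Ndr/Ndr livers (log2 fold change -0.85 ± 0.21, edgeR adjusted p = 0.0480). F11 was just inside the threshold, and lost its edgeR call without any 1 Jag1+/+ library (adjusted p = 0.120 to 0.163), without Jag1Ndr/Ndr replicate 1 or 3 (0.0777 and 0.0940), with sex as a covariate (0.109), with library totals (0.168) and with a stricter filter (0.0509).

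Klkb1, plasma prekallikrein, lies 4632 bases from F11 and is known as its relative by gene duplication. Its values were 95.5, 126 and 126 CPM in Jag1Ndr/Ndr and 150, 181 and 194 CPM in Jag1+/+ libraries. They did not overlap, but the log2 fold change of -0.60 ± 0.18 did not pass (edgeR adjusted p = 0.0902; 0.0182 by DESeq2).

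The kininogens Kng1 and Kng2, which carry the bradykinin peptide and bind prekallikrein, had positive values without passing, and as close paralogs they can share reads. Kng2 measured 519.6, 294 and 286 CPM in Jag1Ndr/Ndr and 264, 257 and 240.2 CPM in Jag1+/+ libraries. Replicate 1 was far above the rest, and the log2 fold change was 0.53 ± 0.25 (edgeR adjusted p = 0.263), or 0.19 without it (edgeR adjusted p = 0.431). Kng1 averaged 3674 ± 1001 CPM in Jag1Ndr/Ndr and 3182 ± 416 CPM in Jag1+/+ livers, and its log2 fold change of 0.21 turned to -0.02 without Jag1Ndr/Ndr replicate 1.

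F8, the cofactor of factor IX, is made in liver by sinusoidal endothelial cells. Its values were 15.5, 29.8 and 17.97 CPM in Jag1Ndr/Ndr and 23.6, 26.2 and 25.9 CPM in Jag1+/+ libraries, the Jag1Ndr/Ndr values lying on both sides of the others (log2 fold change -0.25, 95% interval -0.80 to 0.31, edgeR adjusted p = 0.623). F9, the hepatocyte protease that F8 assists, and F12, which starts the contact route, also overlapped (log2 fold changes -0.26 and 0.05). F12 varied within both genotypes, from 398 to 677 CPM in Jag1Ndr/Ndr and from 331 to 715 CPM in Jag1+/+ libraries.

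Fibrinogen, the most abundant clotting protein of plasma and a textbook acute phase protein, is built from 3 chains encoded side by side on chromosome 3, with gaps of 11096 bases between Fgg and Fga and 8618 between Fga and Fgb. None of the 3 passed. Fga measured 6837, 6294 and 4604 CPM in Jag1Ndr/Ndr replicates 1, 2 and 3 and 5120, 5532 and 5094 CPM in Jag1+/+ replicates 1, 2 and 3. Fgb measured 6090, 5376 and 4086 CPM in Jag1Ndr/Ndr and 4194, 4877 and 3987 CPM in Jag1+/+ libraries. Fgg measured 4315, 3984 and 2979 CPM in Jag1Ndr/Ndr and 3376, 3734 and 3238 CPM in Jag1+/+ libraries. In all 3 chains Jag1Ndr/Ndr replicates 1 and 2 were above every Jag1+/+ library and replicate 3 was below most or all of them.

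The log2 fold changes were 0.17 ± 0.22 (Fga, 95% interval -0.33 to 0.67), 0.25 ± 0.22 (Fgb, -0.26 to 0.77) and 0.12 ± 0.21 (Fgg, -0.37 to 0.61), with edgeR adjusted p-values of 0.718, 0.583 and 0.793. They turned on single libraries, at 0.05 (Fga), 0.11 (Fgb) and 0.01 (Fgg) without Jag1Ndr/Ndr replicate 1, and 0.33, 0.40 and 0.27 without replicate 3, none of which passed. Per length, Fgb stood at 1.47 to 1.53 times Fga in Jag1Ndr/Ndr and 1.35 to 1.52 times in Jag1+/+ libraries. The Fgg to Fga ratio was 1.12 to 1.15 in Jag1Ndr/Ndr and 1.13 to 1.20 in Jag1+/+ libraries. Both ratios overlapped between genotypes, and whether the proportions of the chains differed was not tested. The chains together took 1.5%, 1.87% and 1.25% of reads in Jag1Ndr/Ndr replicates 1, 2 and 3 and 1.25%, 1.35% and 1.18% in Jag1+/+ replicates 1, 2 and 3. In both genotypes Fgb, Fgg, Kng1 and Fga had, in that order, the highest levels per length of the 37 genes.

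**Figure D2:**
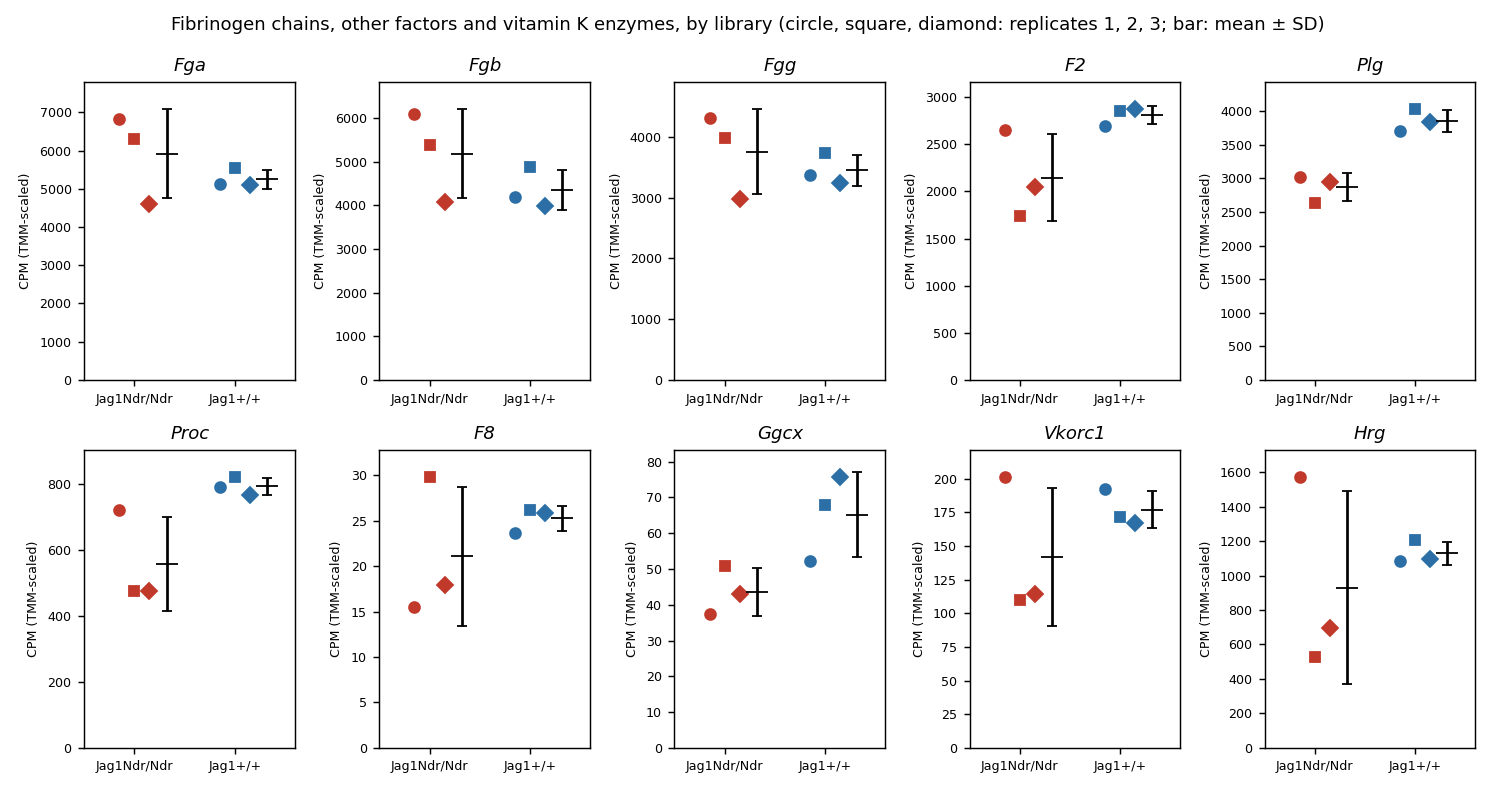
TMM-scaled CPM (y axes, from 0) of 10 genes in each Jag1Ndr/Ndr (left, red) and Jag1+/+ (right, blue) library, with mean ± SD (n = 3). The fibrinogen chains Fga, Fgb and Fgg overlap between genotypes, whereas Plg, Proc, F2 and Ggcx do not, and Jag1Ndr/Ndr replicate 1 (circle) is the highest point for Hrg and Vkorc1.

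The genes of the factor XIII subunits had fold changes of opposite sign. F13a1 encodes the catalytic A subunit, known from macrophages, megakaryocytes and platelets (chromosome 13, positions 36867178 to 37050244). It measured 5.94, 17.7 and 8.11 CPM in Jag1Ndr/Ndr replicates 1, 2 and 3 and 2.78, 2.66 and 1.99 CPM in Jag1+/+ replicates 1, 2 and 3. All Jag1Ndr/Ndr libraries were above all Jag1+/+ libraries, with replicate 2 highest, and F13a1 rose 4.36-fold (log2 fold change 2.12 ± 0.41, edgeR adjusted p = 0.0198). The value was 1.52 without Jag1Ndr/Ndr replicate 2. F13a1 lost its edgeR call without any 1 Jag1+/+ library (adjusted p = 0.0740 to 0.0821) and with sex as a covariate (0.0616).

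F13b encodes the carrier B subunit, made by hepatocytes. It measured 135, 192 and 195 CPM in Jag1Ndr/Ndr and 294, 268 and 304 CPM in Jag1+/+ libraries, which did not overlap. Its log2 fold change of -0.73 ± 0.19 lay just outside the threshold (edgeR adjusted p = 0.0569; 0.00252 by DESeq2). Per length and within each library, F13a1 over F13b was 0.0269, 0.0564 and 0.0255 in Jag1Ndr/Ndr and 0.00579, 0.00609 and 0.00401 in Jag1+/+ livers. The ratio does not depend on library scaling. It had to be apart, since F13a1 was higher and F13b lower in every Jag1Ndr/Ndr library.

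Beside F13a1, macrophage markers had 2 of 10 genes higher and 0 lower by edgeR, with summed levels of 1435 to 2456 CPM in Jag1Ndr/Ndr and 711 to 1208 CPM in Jag1+/+ libraries. Megakaryocyte and platelet markers had 0 of 12 past the threshold by edgeR (5 with unadjusted p below 0.05; 1 higher by DESeq2), with all 12 log2 fold changes positive. Their summed levels, which overlapped, were 103 to 192 CPM in Jag1Ndr/Ndr and 37.3 to 108 CPM in Jag1+/+ libraries. None of these markers was at 0 in any library, and their part in the level of F13a1 was not tested.

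Vwf encodes von Willebrand factor, which tethers platelets and carries factor VIII in plasma, and is made by endothelial cells and megakaryocytes (chromosome 6, positions 125552948 to 125686679). It measured 37.2, 27.2 and 31.6 CPM in Jag1Ndr/Ndr replicates 1, 2 and 3 and 12.3, 14.2 and 12.7 CPM in Jag1+/+ replicates 1, 2 and 3. The genotypes were far apart and Vwf rose 2.44-fold (log2 fold change 1.29 ± 0.17, edgeR adjusted p = 0.00576, the smallest among the 37). It kept its edgeR call without each library in turn (adjusted p at most 0.0377) and with sex as a covariate (0.0106).

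Per length, Vwf over its partner F8 was 2.00, 0.760 and 1.46 in Jag1Ndr/Ndr and 0.433, 0.453 and 0.407 in Jag1+/+ libraries. Endothelial markers had 0 of 13 past the threshold by edgeR and 0 by DESeq2, with 6 positive and 7 negative log2 fold changes. The 2 with an unadjusted edgeR p below 0.05, Kdr (-0.62) and Tek (-0.49), were lower without overlap. Summed endothelial levels overlapped, at 770 to 858 CPM in Jag1Ndr/Ndr and 770 to 880 CPM in Jag1+/+ libraries. The megakaryocyte markers given beside F13a1 apply to Vwf too, and their part was not tested.

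Lman1 and Mcfd2, which together carry factors V and VIII out of the endoplasmic reticulum, were lower without overlap and did not pass. Lman1 averaged 150 ± 27.6 CPM in Jag1Ndr/Ndr and 203 ± 29.4 CPM in Jag1+/+ livers (edgeR adjusted p = 0.239). Mcfd2 averaged 157 ± 18.9 CPM in Jag1Ndr/Ndr and 188 ± 9.86 CPM in Jag1+/+ livers (edgeR adjusted p = 0.394).

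Neither vitamin K enzyme passed by edgeR (0 of 2), with 1 at an unadjusted p below 0.05 and 0 called with DESeq2. Ggcx, the gamma-carboxylase itself, measured 37.4, 50.8 and 42.9 CPM in Jag1Ndr/Ndr replicates 1, 2 and 3 and 52.1, 67.9 and 75.7 CPM in Jag1+/+ replicates 1, 2 and 3. The genotypes did not overlap, though Jag1Ndr/Ndr replicate 2 and Jag1+/+ replicate 1 almost met (log2 fold change -0.58 ± 0.19, 95% interval -1.01 to -0.15, edgeR adjusted p = 0.106). Vkorc1, the reductase that recycles vitamin K and is the target of warfarin, measured 201, 110 and 114 CPM in Jag1Ndr/Ndr and 192, 172 and 167 CPM in Jag1+/+ libraries.

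Jag1Ndr/Ndr replicate 1 was above every Jag1+/+ library for Vkorc1 and replicates 2 and 3 were below them (log2 fold change -0.32, 95% interval -0.89 to 0.25, edgeR adjusted p = 0.514). Without replicate 1, Vkorc1 was lower (log2 fold change -0.67, edgeR adjusted p = 0.0338). The proteins carboxylated by Ggcx had log2 fold changes from -0.51 (Proc) to 0.05 (Pros1), and none of F2, F7, F9, F10, Proc, Pros1 and Proz passed by edgeR or DESeq2 with all 6 libraries. Of 10 other genes of the vitamin K cycle and Gla proteins tested, among them Vkorc1l1 and Gas6, edgeR called 0 (0 with unadjusted p below 0.05; 0 by DESeq2), with a median log2 fold change of -0.11.

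Among anticoagulants and thrombin receptors Procr rose and the other 7 did not pass. Procr encodes the endothelial protein C receptor, which presents protein C to thrombin and thrombomodulin for activation (chromosome 2, positions 155751125 to 155755478). It measured 5.85, 4.76 and 7.41 CPM in Jag1Ndr/Ndr replicates 1, 2 and 3 and 2.085, 2.11 and 1.76 CPM in Jag1+/+ replicates 1, 2 and 3. The lowest Jag1Ndr/Ndr library was over the highest Jag1+/+ library by a wide margin, and Procr rose 3.02-fold (log2 fold change 1.59 ± 0.26, edgeR adjusted p = 0.0112). The edgeR adjusted p was 0.0528 to 0.0618 without any 1 Jag1+/+ library.

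Its partners in the same reaction had negative values. Thbd, thrombomodulin, measured 7.18, 7.13 and 6.77 CPM in Jag1Ndr/Ndr and 9.73, 9.61 and 15.9 CPM in Jag1+/+ libraries, apart but not past the threshold (log2 fold change -0.75 ± 0.24, edgeR adjusted p = 0.101; 0.0469 by DESeq2). Proc, the protein C precursor, measured 721, 475 and 477 CPM in Jag1Ndr/Ndr and 792, 821 and 767 CPM in Jag1+/+ libraries. Proc did not overlap either, and its log2 fold change of -0.51 ± 0.21 did not pass (edgeR adjusted p = 0.206), whereas it was -0.74 without Jag1Ndr/Ndr replicate 1 (0.0285). Per length, Procr over Thbd was 1.65 to 2.7 in Jag1Ndr/Ndr and 0.272 to 0.542 in Jag1+/+ libraries. This ratio too had to be apart, since Procr was higher and Thbd lower in every Jag1Ndr/Ndr library.

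Pros1, the protein S cofactor of activated protein C, overlapped between genotypes (60.0 ± 13.9 CPM in Jag1Ndr/Ndr and 58.0 ± 5.85 CPM in Jag1+/+ livers). Tfpi, the inhibitor of the tissue factor complex, measured 17.1, 31.99 and 29.2 CPM in Jag1Ndr/Ndr and 18.9, 19.05 and 17.8 CPM in Jag1+/+ libraries, so that replicate 1 was below all Jag1+/+ libraries and the other 2 were above them. Tfpi did not pass with all libraries (log2 fold change 0.50 ± 0.23, edgeR adjusted p = 0.250) and was higher without Jag1Ndr/Ndr replicate 1 (0.71, 0.0180). Its paralog Tfpi2, an inhibitor of plasmin and other proteases, averaged 23.3 ± 2.88 CPM in Jag1Ndr/Ndr and 32.3 ± 3.71 CPM in Jag1+/+ livers (edgeR adjusted p = 0.123).

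F2r, the thrombin receptor PAR1, measured 44.4, 56.6 and 64.5 CPM in Jag1Ndr/Ndr and 43.2, 33.1 and 33.9 CPM in Jag1+/+ libraries (log2 fold change 0.59 ± 0.18, edgeR adjusted p = 0.0957; 0.0426 by DESeq2, and 0.0390 by edgeR without Jag1Ndr/Ndr replicate 1). The other protease-activated receptors had positive values too, and 1 of 3 passed. F2rl1, or PAR2, a receptor of epithelial cells cut by trypsin-like proteases, measured 3.55, 4.78 and 7.68 CPM in Jag1Ndr/Ndr and 0.579, 0.519 and 0.362 CPM in Jag1+/+ libraries, and rose 11.2-fold (log2 fold change 3.48 ± 0.39, edgeR adjusted p = 0.00324). F2rl1 over F2r per length was 0.0955 to 0.142 in Jag1Ndr/Ndr and 0.0128 to 0.0188 in Jag1+/+ libraries. Beside F2rl1, cholangiocyte markers had 2 of 8 tested genes higher, Cldn4 and Cldn7, and summed levels of 64.9 to 172 CPM in Jag1Ndr/Ndr and 95.7 to 139 CPM in Jag1+/+ libraries, and their part was not tested.

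**Figure D3:**
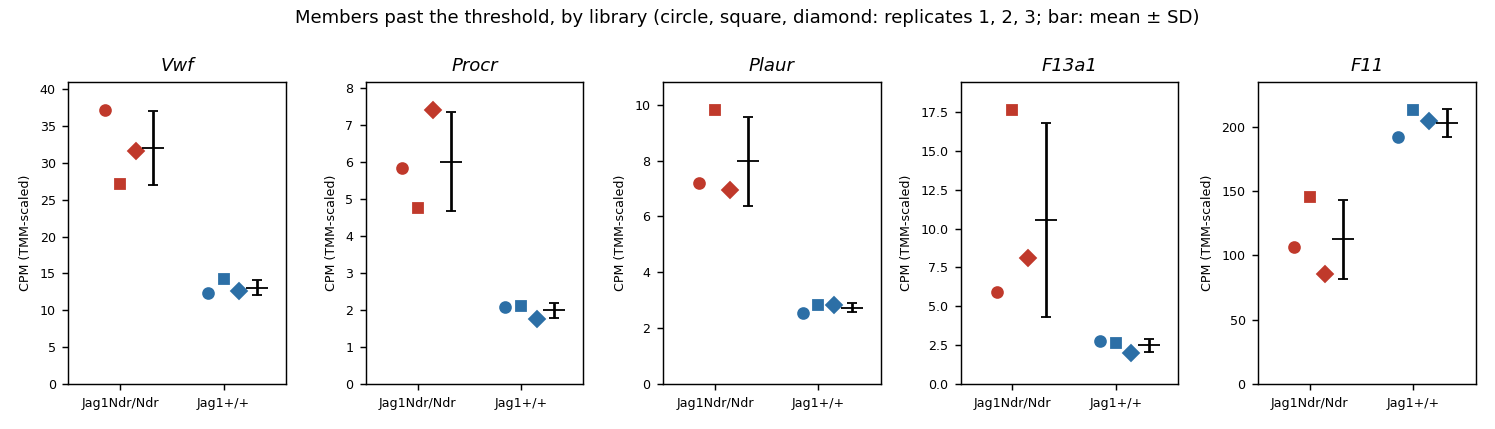
TMM-scaled CPM (y axes, from 0) of the 5 members past the threshold in each Jag1Ndr/Ndr (left, red) and Jag1+/+ (right, blue) library, with mean ± SD (n = 3). Vwf, Procr, Plaur and F13a1 are higher in all 3 Jag1Ndr/Ndr libraries and F11 is lower, and F13a1 ran from 5.94 to 17.7 CPM in Jag1Ndr/Ndr.

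In the plasminogen system Plaur rose and the other 6 members did not pass. Plaur encodes the urokinase receptor, which focuses plasmin formation on the surface of myeloid and other migrating cells (chromosome 7, positions 24460937 to 24475970). It measured 7.18, 9.82 and 6.93 CPM in Jag1Ndr/Ndr replicates 1, 2 and 3 and 2.55, 2.82 and 2.82 CPM in Jag1+/+ replicates 1, 2 and 3. The genotypes were clearly apart and Plaur rose 2.93-fold (log2 fold change 1.55 ± 0.23, edgeR adjusted p = 0.00841), with an adjusted p of at most 0.0478 without any 1 library and 0.0282 with sex as a covariate. Neutrophil markers, given beside it, had 5 of 9 tested genes higher, with summed levels of 1067 to 2357 CPM in Jag1Ndr/Ndr and 629.5 to 754.5 CPM in Jag1+/+ libraries and none at 0. Their part in Plaur, and that of the macrophage markers, was not tested.

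Plau, urokinase itself, measured 2.92, 8.24 and 3.36 CPM in Jag1Ndr/Ndr and 6.72, 5.16 and 4.73 CPM in Jag1+/+ libraries, with replicate 2 of Jag1Ndr/Ndr above and the other 2 below all Jag1+/+ libraries. The log2 fold change was -0.14 (95% interval -1.05 to 0.76, edgeR adjusted p = 0.882) and its sign turned under 5 of the alternatives, while it was -0.80 without Jag1Ndr/Ndr replicate 2. Receptor over ligand per length was 2.00 to 4.12 in Jag1Ndr/Ndr and 0.637 to 1.00 in Jag1+/+ libraries. Plat, the tissue-type activator of endothelial cells, was the least abundant member per length, at 1.51, 3.76 and 1.81 CPM in Jag1Ndr/Ndr and 1.22, 0.454 and 0.388 CPM in Jag1+/+ libraries. Its reads were few, 17, 268 and 34 in Jag1Ndr/Ndr and 21, 14 and 15 in Jag1+/+ libraries, and the log2 fold change of 1.92 ± 0.54 did not pass (edgeR adjusted p = 0.0686; 0.0127 by DESeq2).

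Plg, plasminogen, made by hepatocytes, measured 3025, 2635 and 2950 CPM in Jag1Ndr/Ndr replicates 1, 2 and 3 and 3702, 4028 and 3842 CPM in Jag1+/+ replicates 1, 2 and 3. All Jag1Ndr/Ndr values were lower, by 1.34-fold in the fit, and Plg did not pass by edgeR (log2 fold change -0.43 ± 0.18, adjusted p = 0.217; 0.0334 by DESeq2). Cpb2, a carboxypeptidase that protects fibrin from plasmin, averaged 218 ± 56.3 CPM in Jag1Ndr/Ndr and 294 ± 38.0 CPM in Jag1+/+ livers and overlapped. Habp2, a hyaluronan-binding serine protease, averaged 225 ± 25.5 CPM in Jag1Ndr/Ndr and 277 ± 19.8 CPM in Jag1+/+ livers without overlap (edgeR adjusted p = 0.334).

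Hrg, the histidine-rich glycoprotein that binds plasminogen and heparin, measured 1570, 528 and 693 CPM in Jag1Ndr/Ndr and 1084, 1206 and 1095 CPM in Jag1+/+ libraries. Jag1Ndr/Ndr replicate 1 was above and the other 2 were below every Jag1+/+ library (log2 fold change -0.28, 95% interval -1.14 to 0.58, edgeR adjusted p = 0.732). Without replicate 1 Hrg was lower (log2 fold change -0.89, edgeR adjusted p = 0.0324). Its neighbours on chromosome 16, Kng2 and Kng1, had positive values.

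The kit does not mark strand, so reads of overlapping genes cannot be told apart. In GENCODE M21 exons of F13a1 shared 74 bases with an antisense gene, F5 262, Fgg 115, Plg 420 and Habp2 1128, and Klkb1 and Vkorc1 shared 2267 and 401 bases with a gene on the same strand. Vwf, Procr, Plaur and F11 shared no exon bases with another gene.

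The spread between libraries was larger in Jag1Ndr/Ndr than in Jag1+/+ livers for 32 of the 37 members (86.5%, beside 76.4% of all genes tested). The median SD of log2 CPM over the members was 0.315 in Jag1Ndr/Ndr and 0.113 in Jag1+/+ livers, beside 0.317 and 0.168 over all genes. Replicate 1 was the highest of the Jag1Ndr/Ndr libraries for 15 members (40.5%, beside 36.2% of all genes), among them Hrg, F7, F10, F2, Proc and Vkorc1, and the lowest for 14 (37.8%, beside 42.0%), among them F8, F13b, Ggcx and Lman1. Without replicate 1, edgeR called 6 members higher (Vwf, Procr, Plaur, F13a1, Tfpi and F2r; 16.2%, beside 4.75% of 14298 genes) and 3 lower (Proc, Vkorc1 and Hrg; 8.11%, beside 3.72%), and F11 was not called. The Jag1Ndr/Ndr libraries left in that fit were all female, so in it genotype and sex are partly mixed.

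The inhibitors and other genes around this system that are described here, which are not members, held 6 genes past the threshold. Of 11 serpins and macroglobulins 1 rose and 1 fell, with a median log2 fold change of -0.14. Serping1, the C1 inhibitor that also blocks kallikrein and factor XIIa, rose 1.68-fold to 779 ± 97.3 CPM in Jag1Ndr/Ndr, against 463 ± 23.8 CPM in Jag1+/+ livers (edgeR adjusted p = 0.0409), and lost its edgeR call without any 1 Jag1+/+ library (0.138 to 0.217), without Jag1Ndr/Ndr replicate 3 (0.0599), with sex as a covariate (0.0642), with the replicate block (0.0514) and with no filter (0.0501). Serpina5, the protein C inhibitor, fell to 2, 6 and 1 reads in Jag1Ndr/Ndr, against 22, 25 and 35 reads in Jag1+/+ libraries (log2 fold change -3.37 ± 0.50, edgeR adjusted p = 0.00836). In CPM these were 0.177, 0.0842 and 0.0533 in Jag1Ndr/Ndr and 1.27, 0.811 and 0.904 in Jag1+/+ libraries. With so few Jag1Ndr/Ndr reads the size of its fall is uncertain, and the stricter filter left Serpina5 out. Serpinc1, antithrombin, did not pass (log2 fold change -0.14).

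Of 5 fibrinogen-like and adhesive genes Fgl1 rose and Adamts13 fell. Fgl1, a liver-made fibrinogen-like protein, averaged 791 ± 180.0 CPM in Jag1Ndr/Ndr and 363 ± 23.8 CPM in Jag1+/+ livers (log2 fold change 1.12 ± 0.22, edgeR adjusted p = 0.0198). Adamts13, the protease that trims von Willebrand factor and is made by hepatic stellate cells, measured 5.14, 6.23 and 5.12 CPM in Jag1Ndr/Ndr and 9.555, 10.4 and 9.46 CPM in Jag1+/+ libraries. It fell 1.77-fold while Vwf rose (log2 fold change -0.82 ± 0.19, edgeR adjusted p = 0.0354), and lost its call with library totals (0.158), with sex as a covariate (0.0792) without Jag1Ndr/Ndr replicate 3 (0.0836) and without any 1 Jag1+/+ library (0.108 to 0.147). Stellate and fibroblast markers had 0 of 10 higher and 1 lower by edgeR (6 with unadjusted p below 0.05; 2 higher and 1 lower by DESeq2). Of their log2 fold changes 6 were positive and 4 negative. Their summed levels were 765 to 1176 CPM in Jag1Ndr/Ndr and 982 to 1099 CPM in Jag1+/+ libraries, and their part was not tested.

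Of 7 plasminogen receptors and other regulators of fibrinolysis, Anxa2, a surface receptor for plasminogen and tissue-type activator, rose 1.84-fold (134 ± 17.4 CPM in Jag1Ndr/Ndr and 73.2 ± 3.88 CPM in Jag1+/+ livers, edgeR adjusted p = 0.0150). Its call and that of Fgl1 were lost without any 1 Jag1+/+ library (edgeR adjusted p = 0.0656 to 0.0985 for Anxa2 and 0.0865 to 0.113 for Fgl1).

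**Figure D4:**
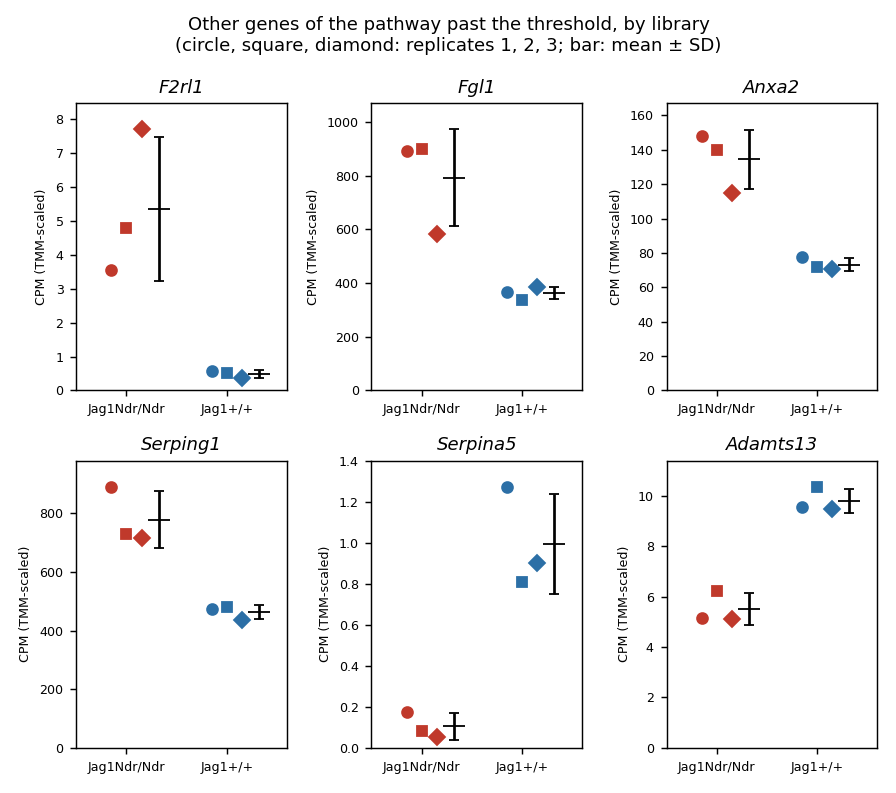
TMM-scaled CPM (y axes, from 0) of 6 other pathway genes past the threshold in each Jag1Ndr/Ndr (left, red) and Jag1+/+ (right, blue) library, with mean ± SD (n = 3). F2rl1, Fgl1, Anxa2 and Serping1 are higher in all Jag1Ndr/Ndr libraries, and Serpina5 and Adamts13 are lower.

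**Figure D5:**
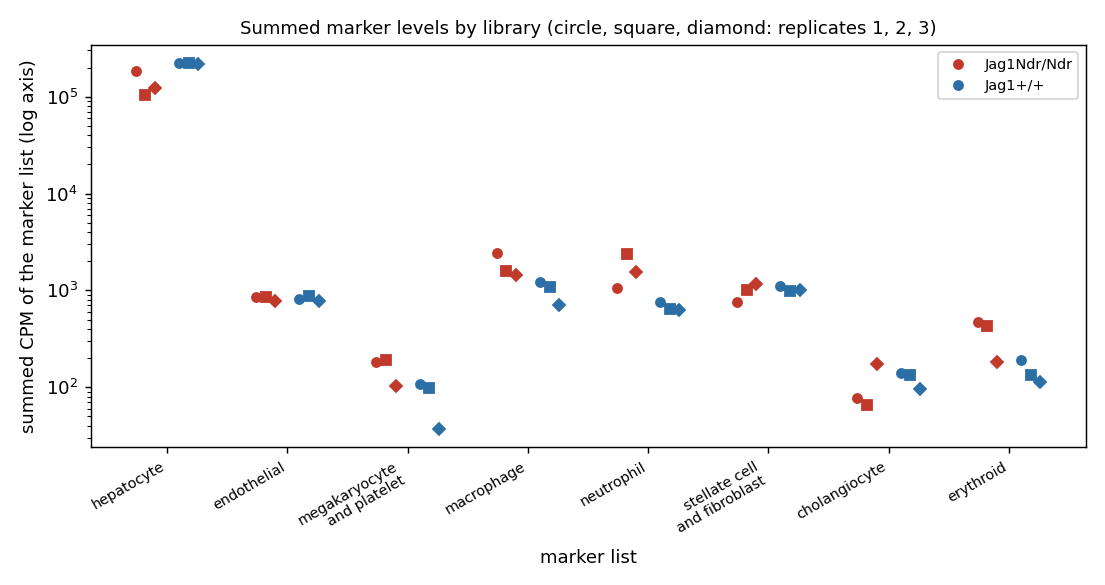
Summed CPM of each cell type's marker list (log y axis) by library, Jag1Ndr/Ndr in red to the left of Jag1+/+ in blue. Endothelial sums overlap, at 770 to 858 CPM in Jag1Ndr/Ndr and 770 to 880 CPM in Jag1+/+ libraries, while hepatocyte sums, mostly albumin with 1 of 8 markers called lower, are lower and neutrophil and macrophage sums higher in all Jag1Ndr/Ndr libraries.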

How the data were processed

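RNA was taken from liver lobes and libraries were made with a kit that does not mark strand. The authors deposited read counts per RefSeq gene entry, without normalization, and RPKM, with a TMM factor for each library, per the file headers. Set against the counts over 11559 genes, the RPKM are multiplied by that factor (each library within 1.12% of it, and 7.68% to 64.6% off its inverse), where TMM scaling would divide by it. The submitters' processing notes name STAR and mm10, versions not given. No source used here names the read counter. Members and gene lists were chosen with earlier results of these data known.

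Counts of 24489 entries (93 spike-in and eGFP entries with 5 reads left out) were filtered with filterByExpr, scaled by TMM and tested across 13819 genes with edgeR 4.0.16 in R 4.3.3, genotype as the only term, two-sided. CPM are counts over TMM-scaled library sizes. Levels per length divide them by the length implied by the deposited RPKM. Each standard error was obtained by dividing the fitted change by the square root of its F statistic. Alternatives were RLE factors, library totals, other filters, DESeq2 1.42.0, limma 3.58.1 on deposited RPKM, a replicate block, sex, and leaving out each library. The test was tried on counts simulated for this comparison (13819 genes), with the same spread per gene in both genotypes. There 33 of 100 genes with a 2-fold change were found, 92 of 100 with a 4-fold change, and 10 of 13619 without a change were called. All members were named, with every library's value for those past the threshold and a fixed set. Promoters and gene positions are from RefSeq, GRCm38. A gene of the inhibitor list is not reported here and was left out of its counts.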

Additional observations from a re-analysis of the deposited data

How the results depend on the processing

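edgeR called 4 members higher and 1 lower, and 653 genes higher and 401 lower overall (62.0% of calls higher). Library totals gave 0 members lower, with 606 genes higher and 210 lower (74.3% of calls higher). The stricter filter gave 0 members lower, with 612 genes higher and 378 lower. DESeq2 gave 5 members lower, with 1137 genes higher and 753 lower. With sex as a covariate 0 members were lower, with 366 genes higher and 230 lower. limma on RPKM called 0 members in either direction, with 299 genes higher and 85 lower at a pseudocount of 1 and 325 and 90 at 0.1 (77.9% and 78.3% of calls higher); these fits moved the log2 fold changes of all genes by a median of 0.21 and 0.22. With the factor divided out instead, limma gave 3 members higher and 0 lower, with 351 genes higher and 310 lower. The labels do not say that a replicate number marks a litter or a batch, so the main fit had no block. Deviations of same-numbered libraries had weak positive correlations (0.0856, 0.17 and 0.195). With the replicate block 4 members were higher and 3 lower (F11, Klkb1 and Ggcx, 8.11%), with 843 genes higher and 587 lower (4.25%). Leaving out 1 library gave 2 to 6 members higher and 0 to 3 lower, and 155 to 679 genes higher and 127 to 532 lower.

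Among 687 alternative values of single genes 599 kept their direction and their side of the threshold and 18 turned sign, all of genes that did not pass. Plau was 0.0357 with library totals and 0.0154 with limma at a pseudocount of 1, and -0.80 to 0.10 across the libraries left out. F7 was 0.0329 and 0.0334 with limma at pseudocounts of 1 and 0.1 (-0.49 to 0.0201 with libraries left out) and F10 0.0166 at both. With sex as a covariate F12 was -0.008 and Pros1 -0.006. With libraries left out F12 was -0.20 to 0.32, Pros1 -0.16 to 0.17, Kng1 -0.0236 to 0.39 and Hrg -0.89 to 0.0149. The cause of these changes was not tested. With 3 libraries a genotype, changes near 2-fold were often missed in simulated counts. Those counts had the same spread in both genotypes, unlike the data, where Jag1Ndr/Ndr libraries spread more. A member that did not pass is not shown to be alike in both genotypes.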
